A study of Mus musculus with 10 samples.

Results

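A set of 9 genes that couple glucose to the closing of the ATP-sensitive potassium (KATP) channel was followed in pancreatic islets from mice lacking FIT2 in β cells. They were read from the deposited table by their symbols as Slc2a2, G6pc2, Pfkfb2, Gpd2, Pcx, Me1, Pck2, Glud1 and Abcc8, which are 9 of its 47340 genes, and all 9 were among the 13065 genes abundant enough to be tested. The comparison asks whether the transcripts of this pathway differ when the protein is lost. Libraries came from 5 floxed control (FL) and 5 βFIT2KO (KO) mice, male, 12 wk old and fed chow, and every mouse gave 1 library. In FL mice both copies of the FIT2 gene (Fitm2) are flanked by loxP sites, although the genotype field of their labels reads wild type. KO mice carry the same loxP sites and in addition the B6.Cg-Tg(Ins2-cre)25Mgn/J transgene, in which the rat insulin promoter drives Cre recombinase, so deletion is aimed at β cells while the other islet cells keep the gene. No library came from mice with Cre and an intact Fitm2 gene, so the loss of FIT2 and the presence of Cre cannot be told apart. Islets rested overnight in culture before RNA was taken.

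A β cell reads blood glucose through its own metabolism. Glucose enters through a transporter, is phosphorylated and passes down glycolysis, and the NADH and pyruvate that result are handed to mitochondria, where the ATP they yield closes KATP channels, depolarizes the membrane and opens the way for calcium entry and insulin release. Side routes around pyruvate, malate and phosphoenolpyruvate refill the tricarboxylic acid cycle and make NADPH, and β cells are known for feeding much of their pyruvate into these routes and little into lactate.

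The values are FPKM, fragments scaled by transcript length and by library size, with libraries scaled to each other by the authors' program Cuffnorm. They are per unit of length and can be set side by side between genes. Differences are given as log2 fold changes of FPKM + 1, KO minus FL, with the standard error (SE) and a p from limma that was adjusted by the Benjamini-Hochberg method over all 13065 tested genes. A gene is said to have risen or fallen where that adjusted p was at most 0.05. Of all tested genes 25.5% passed, 16.5% as lower and 9.05% as higher in KO islets, and the median log2 fold change of all genes was −0.06. That split depends on how libraries are scaled, since 64.5% of the calls were lower as deposited, 52.2% after median ratio scaling, 53.3% after quantile normalization, 52.4% after scaling to the same sum and 31% after upper quartile scaling. Upper quartile scaling moved the median of all genes from −0.056 to 0.048, a shift of over 0.1. The steps between the lowest values of short single-exon genes put the depth, as scaled by Cuffnorm, at about 23500000 to 56500000 fragments in FL and 35500000 to 48200000 in KO libraries. Fitm2 itself, the check of the labels, averaged 23.3 ± 9.86 FPKM over the FL mice and 6.95 ± 2.36 FPKM over the KO mice (SD, n = 5), and the groups did not overlap.

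The islet label was checked against defining markers. Somatostatin (Sst), Ppy and the β cell genes Slc30a8 and Ucn3 were abundant in every group, but Ins1, Ins2, Iapp and Gcg are listed at 0 in all libraries of the table, so insulin, amylin and glucagon could not serve as markers. A 0 for such genes can stand for a failed estimate and is not read as absence. The summed FPKM of the β cell list, which holds G6pc2 as its most abundant gene, was 2235 to 2765 in FL and 1580 to 2186 in KO islets, with 5 of its 7 tested genes lower in KO. At an unadjusted p under 0.05 from limma, 5 were lower and 1 was higher. The higher gene was Pcsk1, at a mean of 187.8 FPKM in FL and 224.3 FPKM in KO mice (adjusted p = 0.091 from limma). The summed FPKM of the α cell list was 439 to 657 in FL and 294 to 434 in KO islets, with 2 of 6 tested genes lower. Most of the α cell sum was Ttr, at a mean of 490.6 FPKM in FL and 334.7 FPKM in KO mice. Of the 6 genes, 1, Ttr, had no overlap between the groups. Summed markers of macrophages and leukocytes were 143 to 173 in FL and 204 to 244 in KO, those of endothelial cells 127 to 147 and 152 to 200, and those of stellate cells and fibroblasts 12.6 to 21.3 and 25.1 to 35.3, so the groups did not overlap in these lists. Of their tested genes, 4 of 7, 4 of 7 and 5 of 5 rose in KO. The part these shifts play in the results that follow was not tested, and in whole islets fewer cells of a type and less RNA per cell cannot be told apart. Acinar markers, enzymes of the exocrine pancreas, were at 4249 to 11230 FPKM in FL and 2797 to 20830 in KO islets, with KO mouse 5 highest of all and KO mice 2 and 3 lowest, and 0 of 8 tested acinar genes differed in limma, also at an unadjusted p under 0.05. Of the remaining lists, 1 of 4 δ cell genes and 1 of 5 ductal genes fell, and 0 of 3 PP and ε cell genes differed, 0 also at an unadjusted p under 0.05. The δ cell gene, Sst, did not pass under any of the 4 other scalings, nor without FL mouse 1, 3, 4 or 5 or KO mouse 1, 2 or 4. The α cell count was 1 without FL mouse 1, 3, 4 or 5 or KO mouse 1, 2 or 4, since Irx1 lost its call there. Irx1 also lost it under each of the 4 other scalings (adjusted p = 0.052 to 0.165 from limma), and after upper quartile scaling the other α cell gene, Ttr, and the ductal gene, Krt7, lost theirs (0.07 and 0.0637). The count of stellate and fibroblast genes was 3 without KO mouse 1, where Col1a1 and Col1a2 lost their calls. Col1a1 also lost its call without FL mouse 2, 3 or 4 or KO mouse 2, 3 or 5 (adjusted p = 0.063 to 0.0952 from limma). Nor did it pass after quantile normalization, with sample weights or with a pseudocount of 0.01 (0.0504 to 0.0579). Of the endothelial genes that rose, Plvap lost its call without FL mouse 1, 2, 4 or 5 or KO mouse 1, 2 or 5. The adjusted p from limma was 0.0578 to 0.0699 in those fits. With the replicate number as a block, Pecam1 and Plvap did not pass (adjusted p = 0.0594 and 0.0842 from limma).

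**Figure D1:**
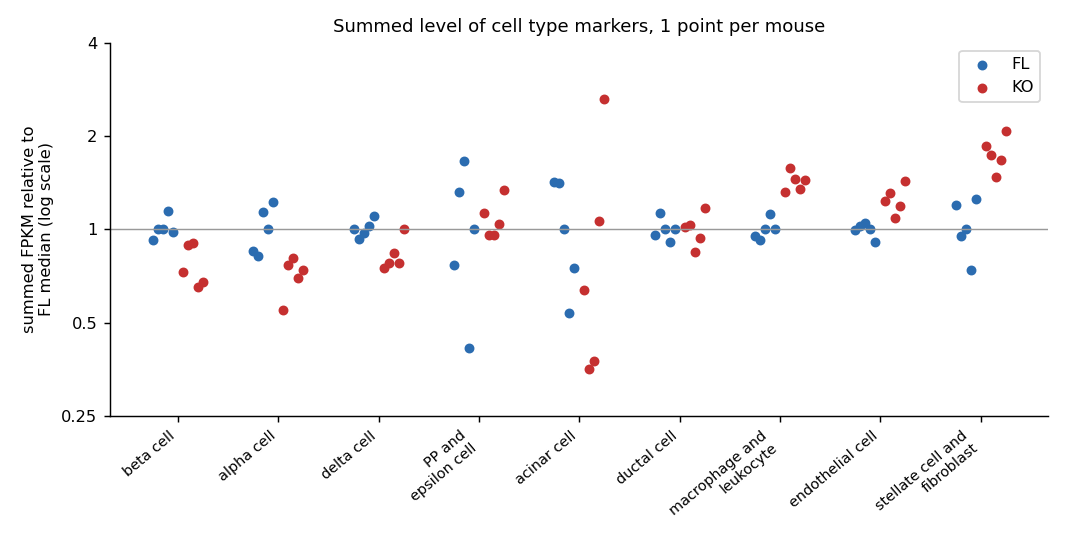
Summed FPKM of each cell type's marker list relative to the FL median of that list, on a log axis, with 1 point for each FL and KO mouse. The KO points lie above all FL points for macrophages and leukocytes, endothelial cells, and stellate cells and fibroblasts, below them for β cells and α cells, and spread on both sides of them for acinar cells. The α cell sum is mostly Ttr, the 1 of its 6 tested genes in which the groups did not overlap.

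Of the 9 genes, 4 fell in KO islets (Gpd2, Slc2a2, Pfkfb2 and Abcc8), 1 rose (Me1) and 4 did not pass (G6pc2, Pcx, Pck2 and Glud1). These counts stand beside 16.5% lower and 9.05% higher among all tested genes. The median log2 fold change of the 9 was −0.26. In the 5 genes that passed, no KO library overlapped with an FL library, 4 times below it and once above it, which was the case for 19.1% of all tested genes, 12.5% below and 6.67% above. Slc2a2 and Gpd2 were also lower by at least 1.5-fold, as were 2.22% of all tested genes, and 0 of the 9 were higher by that much, against 2.67% of all. The genes that fell handle glucose entry, the control of glycolysis, the glycerol phosphate shuttle and the channel, and the gene that rose makes NADPH from malate. In FL islets the order of levels was G6pc2, Abcc8, Slc2a2, Glud1, Pck2, Pcx, Pfkfb2, Gpd2 and Me1. Over the 5 FL mice the ranges of Abcc8 and Slc2a2, of Pck2 and Pcx, and of Pfkfb2 and Gpd2 overlapped. Within a library, Pck2 was above Pcx in all 5 FL mice and Abcc8 above Slc2a2 in 4, while Pfkfb2 and Gpd2 changed places from mouse to mouse. In KO islets Abcc8 was above Slc2a2 in every library, and Gpd2 came to stand last, below Me1, although the values of these 2 genes overlapped.

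**Figure D2:**
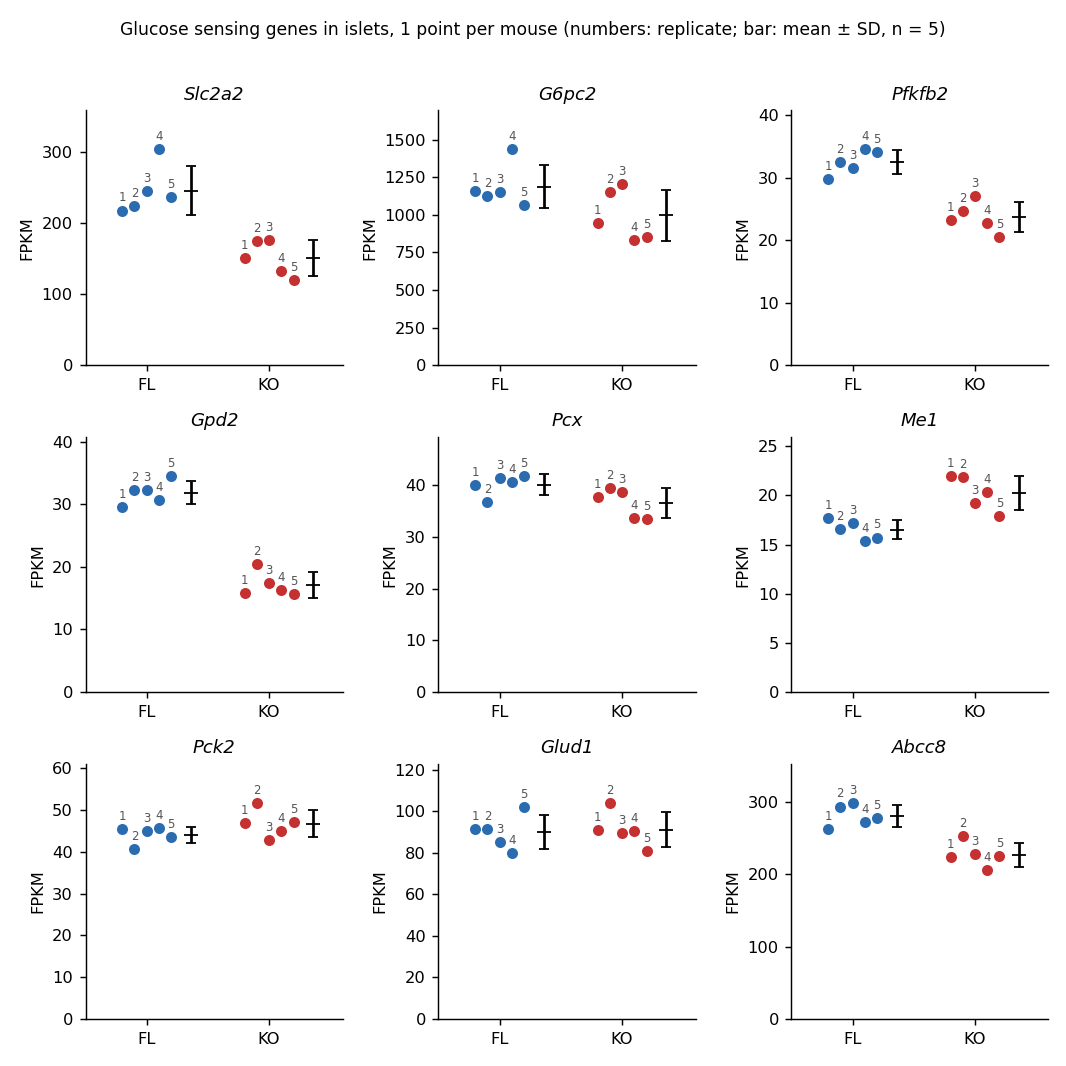
FPKM of each of the 9 genes in each FL and KO mouse (points, 5 per group, labelled by mouse number), with the group mean and SD beside them. FL and KO points are apart for Slc2a2, Pfkfb2, Gpd2, Abcc8 and Me1 and intermix for G6pc2, Pcx, Pck2 and Glud1.

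**Figure D3:**
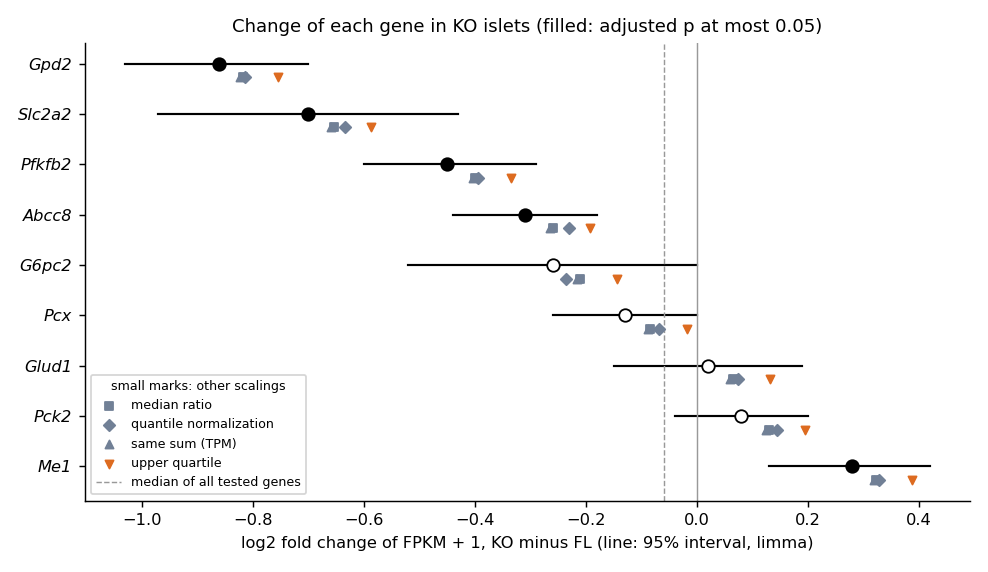
Log2 fold change of FPKM + 1, KO minus FL, for each of the 9 genes with its 95% interval from limma (large circles, filled where the adjusted p was at most 0.05), and the same value under 4 other scalings of the libraries (small marks). Gpd2 lies farthest below 0 at −0.86 and Me1 farthest above it at 0.28, and every other scaling places all 9 genes to the right of their value as deposited.

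Slc2a2 encodes GLUT2, the facilitative glucose transporter of mouse β cells, and lies on the plus strand of chromosome 3 (28697903 to 28731359 in GRCm38, GENCODE M21). It was at 217, 223, 245, 304 and 236 FPKM in FL mice 1 to 5 and at 150.5, 175, 176, 132 and 120.3 FPKM in KO mice 1 to 5. FL mouse 4 stood highest, KO mice 4 and 5 lowest, and the groups did not overlap. The mean went from 245 ± 34.5 FPKM in FL to 150.7 ± 25.04 FPKM in KO (SD, n = 5), which left 61.5% of the FL level. The log2 fold change was −0.70 (SE 0.123, adjusted p = 0.00211 from limma), and 257 of the tested genes fell by more. With 1 library per mouse, the smallest p that an exact two-sided permutation test allows for 5 mice against 5 is 0.00794, and Slc2a2 reached it. The 250 bases before its start in the RefSeq table (GRCm38.p6) are shown because it fell with Gpd2 and Pfkfb2, and none of 6 motifs searched on both strands was in them.

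Slc2a2 promoter, chr3:28697653-28697902, plus strand: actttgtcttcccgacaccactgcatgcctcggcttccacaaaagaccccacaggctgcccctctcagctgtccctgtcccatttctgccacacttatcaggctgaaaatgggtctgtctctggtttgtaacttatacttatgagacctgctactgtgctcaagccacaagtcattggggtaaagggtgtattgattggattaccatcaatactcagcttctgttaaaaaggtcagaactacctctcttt

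G6pc2 encodes the islet glucose-6-phosphatase catalytic subunit, which takes back the phosphate that glucose gains on entry and so opposes the first step of glycolysis. It lies on chromosome 2 (69211073 to 69227841, plus strand) and was the most abundant of the 9 genes, ranked 38 by FPKM in FL islets. FL mice 1 to 5 had 1161, 1125, 1152, 1438 and 1064 FPKM, and KO mice 1 to 5 had 948, 1154, 1204, 835 and 853 FPKM. KO mice 2 and 3 lay within the range of the FL mice while KO mice 1, 4 and 5 lay below it, so the groups overlapped. The FL mean was 1188 ± 145 FPKM and the KO mean 998.5 ± 171 FPKM (SD, n = 5). The log2 fold change of −0.26 had a 95% interval from −0.52 to 0.00 and did not pass (SE 0.119, adjusted p = 0.136 from limma). The KO mice with the highest G6pc2 and Slc2a2, mice 3 and 2, were those with the lowest acinar sums, at 2979 and 2797 FPKM, and FL mouse 4, highest in both genes, had the lowest acinar sum of the FL mice at 4249 FPKM. The other FL mice did not follow this order for G6pc2, since FL mouse 5, lowest in G6pc2, had a low acinar sum of 5949 FPKM and FL mouse 1, with the highest acinar sum of the FL mice at 11230 FPKM, was next to FL mouse 4 in G6pc2. In a fit with the acinar sum as a covariate, chosen after seeing the data, G6pc2 fell (log2 fold change −0.32, adjusted p = 0.0146 from limma), and Slc2a2 fell by 0.78 on the log2 scale (adjusted p = 1.09e-05 from limma).

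The promoter at the annotated start of G6pc2 holds none of the 6 motifs. Another RefSeq start lies inside the gene, and its promoter is shown because it holds the letters GTCAGCA, the reverse complement of the Maf element TGCTGAC, at 2 places in capitals, 122 to 116 and 28 to 22 bases before the start. This element is found, on either strand, in 3.81% of the 32851 promoters of the RefSeq set.

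G6pc2 promoter, chr2:69219699-69219948, plus strand: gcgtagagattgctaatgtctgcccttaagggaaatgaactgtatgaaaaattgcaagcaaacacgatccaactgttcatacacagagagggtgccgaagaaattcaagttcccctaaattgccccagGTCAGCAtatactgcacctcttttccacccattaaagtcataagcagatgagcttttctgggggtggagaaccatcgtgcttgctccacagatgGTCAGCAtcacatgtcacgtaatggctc

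Within a library, the ratio of G6pc2 to Slc2a2 is not changed by a scaling factor applied to the whole library, as in 3 of the 4 other scalings, but can change with quantile normalization, under which ratios were not computed. It was 5.34, 5.04, 4.70, 4.74 and 4.51 in FL mice 1 to 5 and 6.30, 6.59, 6.84, 6.33 and 7.09 in KO mice 1 to 5. All 5 KO mice were above all FL mice, including those whose G6pc2 overlapped with FL. The difference was 0.45 on the log2 scale (exact two-sided permutation test, p = 0.00794, adjusted p = 0.0159 over the 4 ratios tested).

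Around glucose entry and the glucose-6-phosphate step, 3 of 8 tested genes of the list fell and 1 rose, with a median log2 fold change of 0.04. The counts of this list and of those that follow stand beside 16.5% lower and 9.05% higher among all tested genes. Slc2a1, which encodes the transporter GLUT1, fell from 46.5 ± 5.25 to 29.0 ± 7.88 FPKM (SD, n = 5; adjusted p = 0.00653 from limma). KO mouse 3, at 42.7 FPKM, stood within the FL range of 40.3 to 50.5 FPKM, and the other KO mice lay below it at 23.7 to 28.5 FPKM. Gpi1, the isomerase that follows, fell from 314.2 ± 36.3 to 228.0 ± 55.0 FPKM (SD, n = 5; adjusted p = 0.0312 from limma), and KO mouse 3 was again the highest KO mouse, at 314 FPKM. The call of Gpi1 was lost after upper quartile, quantile or same-sum scaling (0.0516 to 0.0948) and without FL mouse 1, 2 or 5 or KO mouse 1, 4 or 5 (0.0599 to 0.0746). Slc37a4, which carries glucose-6-phosphate into the endoplasmic reticulum where G6pc2 acts, fell from 37.0 ± 1.65 to 28.1 ± 3.68 FPKM (SD, n = 5; adjusted p = 0.0048 from limma) with no overlap. The phosphatase paralogue G6pc3 was at 47.2 ± 4.42 and 49.0 ± 1.03 FPKM and the transporter Slc2a3 at 2.35 ± 0.938 and 2.57 ± 0.789 FPKM in FL and KO (SD, n = 5), and neither passed (adjusted p = 0.529 and 0.75 from limma). Hk3, a hexokinase known from leukocytes, rose from 0.726 ± 0.124 to 1.22 ± 0.159 FPKM (SD, n = 5; adjusted p = 0.0152 from limma). It is the 1 gene of the list that rose. Only its KO mean reached the minimum of 1 FPKM for testing, so it was tested through the group where it is higher.

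Pfkfb2 encodes a bifunctional kinase and phosphatase that sets the level of the fructose bisphosphate that activates phosphofructokinase. It lies on chromosome 1 (130689182 to 130729253, minus strand), and exons of Yod1 overlap it on the other strand, at a mean FPKM of 3.02 in FL mice and 2.36 in KO mice. Pfkfb2 was at 29.7, 32.4, 31.6, 34.5 and 34.1 FPKM in FL mice 1 to 5 and at 23.2, 24.7, 26.98, 22.7 and 20.5 FPKM in KO mice 1 to 5. The KO mice were all below the FL mice, with KO mouse 3 nearest to them and KO mouse 5 farthest away. The KO mean was 72.8% of the FL mean, 23.6 ± 2.40 against 32.5 ± 1.96 FPKM (SD, n = 5). The log2 fold change was −0.45 (SE 0.071, adjusted p = 0.00119 from limma). Of its 3 RefSeq promoters, the one shown holds CACGTG, the E-box bound by ChREBP and USF, at 22 to 17 bases before the start (capitals), and the other 2 hold the Maf element.

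Pfkfb2 promoter, chr1:130715822-130716071, minus strand: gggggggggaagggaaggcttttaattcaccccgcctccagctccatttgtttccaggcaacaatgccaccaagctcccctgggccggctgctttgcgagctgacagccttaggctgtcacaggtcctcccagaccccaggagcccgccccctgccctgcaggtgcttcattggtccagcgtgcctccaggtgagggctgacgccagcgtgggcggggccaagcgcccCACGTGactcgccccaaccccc

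CACGTG, which reads the same on both strands, is in 6.02% of all promoters of the table. Among the paralogues, Pfkfb3 fell from 11.6 ± 2.12 to 7.04 ± 1.78 FPKM (SD, n = 5; log2 fold change −0.65, adjusted p = 0.00979 from limma), with overlap. Pfkfb4 was at 4.58 ± 0.959 and 5.21 ± 0.782 FPKM (SD, n = 5) and did not pass (adjusted p = 0.39 from limma), and Pfkfb1 stayed under 1 FPKM in both groups and was not tested. Tigar, a phosphatase acting on the same sugar, fell from 13.2 ± 0.954 to 10.8 ± 0.800 FPKM (SD, n = 5; adjusted p = 0.0119 from limma) without overlap, a call lost after upper quartile scaling (0.131). In all, 2 of 5 tested genes of this list fell and 0 rose in limma, 0 also at an unadjusted p under 0.05.

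Gpd2 encodes the mitochondrial glycerol-3-phosphate dehydrogenase, the inner-membrane enzyme of the shuttle that passes electrons from cytosolic NADH to the respiratory chain. It lies on chromosome 2 (57237635 to 57370719, plus strand). Its FPKM were 29.6, 32.3, 32.3, 30.6 and 34.5 in FL mice 1 to 5 and 15.8, 20.5, 17.4, 16.3 and 15.6 in KO mice 1 to 5. The FL mice were close together, the KO mice were all far below them, and KO mouse 2 was the highest of the KO mice. Gpd2 went from 31.9 ± 1.87 FPKM to 17.1 ± 2.004 FPKM (SD, n = 5), 53.7% of the FL level. Its difference on the log2 scale, −0.86 (SE 0.074, adjusted p = 1.6e-05 from limma), was the largest fall among the 9 genes, and 162 of all tested genes fell by more. An overlapping transcript on the other strand, A930012O16Rik, had a mean FPKM of 0.734 in FL mice and 1.03 in KO mice. The promoter of the first of its 2 RefSeq starts is shown as that of the gene that fell most, and it holds none of the 6 motifs.

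Gpd2 promoter, chr2:57237428-57237677, plus strand: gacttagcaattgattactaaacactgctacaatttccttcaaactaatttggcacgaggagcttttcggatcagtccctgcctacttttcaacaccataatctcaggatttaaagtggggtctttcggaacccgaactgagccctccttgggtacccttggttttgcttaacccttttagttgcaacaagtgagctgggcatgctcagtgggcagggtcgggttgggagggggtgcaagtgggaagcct

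The cytosolic partner of the shuttle moved the other way. Gpd1, the cytosolic glycerol-3-phosphate dehydrogenase, was at 19.6, 19.2, 20.2, 19.4 and 20.4 FPKM in FL mice 1 to 5 and at 23.4, 28.1, 25.5, 22.5 and 24.7 FPKM in KO mice 1 to 5. All KO mice were above all FL mice (log2 fold change 0.31, SE 0.058, adjusted p = 0.00307 from limma). As a result, the ratio of Gpd2 to Gpd1 within a library was 1.51 to 1.69 in FL and 0.63 to 0.73 in KO islets. This ratio was formed after the values of both genes had been seen and is given without a test. The related Gpd1l rose from 19.2 ± 3.53 to 24.9 ± 2.27 FPKM (SD, n = 5; adjusted p = 0.0243 from limma) with overlap, because FL mouse 4 was at 25.4 FPKM, and did not pass without FL mouse 1, 2, 3 or 5 or KO mouse 3 (0.051 to 0.0579). Of the malate-aspartate shuttle and the other genes of the list of 9, Mdh2 fell from 321.7 ± 12.4 to 281.9 ± 21.5 FPKM (SD, n = 5; adjusted p = 0.0307 from limma), and the other 6 did not pass. The fall of Mdh2 did not pass under any of the 4 other scalings, nor without FL mouse 1, 2, 3 or 5 or KO mouse 1, 4 or 5.

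**Figure D4:**
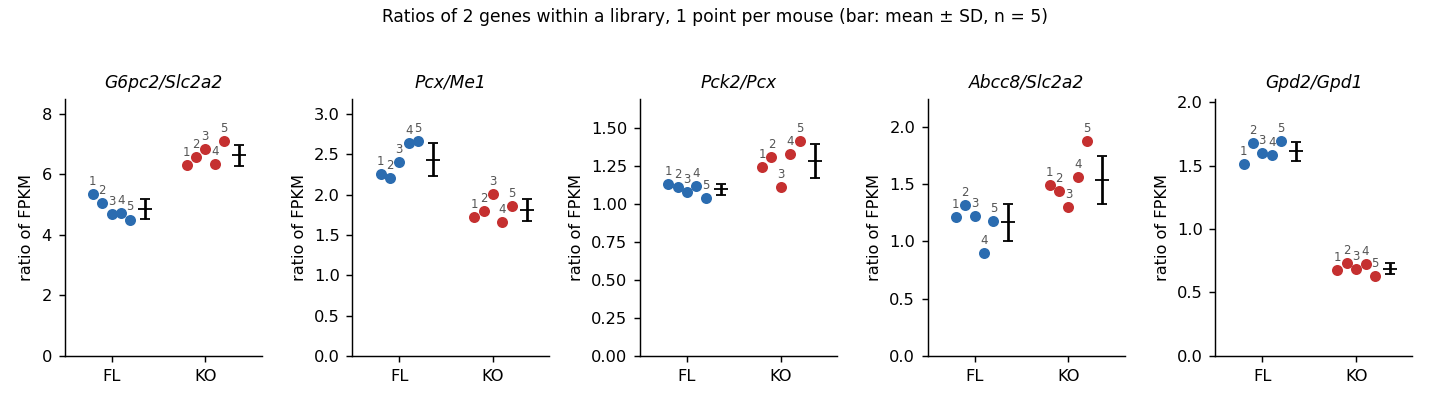
Ratio of FPKM between 2 genes within each library, for G6pc2 to Slc2a2, Pcx to Me1, Pck2 to Pcx, Abcc8 to Slc2a2 and Gpd2 to Gpd1, with 1 point per mouse (labelled by its number), the mean and SD beside each group, and axes that start at 0. The FL and KO points are fully apart for G6pc2 to Slc2a2 (FL 4.51 to 5.34, KO 6.30 to 7.09), Pcx to Me1 and Gpd2 to Gpd1, and 1 KO mouse lies among the FL mice in each of the other 2 ratios.

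Pcx, Me1 and Pck2 encode the enzymes of the side routes around pyruvate. Pyruvate carboxylase (Pcx, chromosome 19, 4510472 to 4621752, plus strand) makes oxaloacetate from pyruvate in mitochondria. Its FPKM were 40.2, 36.7, 41.4, 40.6 and 41.8 in FL mice 1 to 5 and 37.7, 39.5, 38.8, 33.7 and 33.4 in KO mice 1 to 5. FL mouse 2 lay below KO mice 1, 2 and 3, so the groups overlapped, and KO mice 4 and 5 were below all others. The difference of −0.13 on the log2 scale (SE 0.061, 95% interval −0.26 to 0.00) did not pass (adjusted p = 0.138 from limma). With the acinar sum as a covariate, chosen after seeing the data, it did (−0.16, adjusted p = 0.0182 from limma).

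Me1, cytosolic malic enzyme, turns malate into pyruvate and makes NADPH. It lies on chromosome 9 (86581371 to 86695953, minus strand) and was the only one of the 9 genes that rose. FL mice 1 to 5 had 17.7, 16.6, 17.2, 15.4 and 15.7 FPKM and KO mice 1 to 5 had 21.95, 21.9, 19.3, 20.3 and 17.9 FPKM. The lowest KO mouse, mouse 5, was just above the highest FL mouse, mouse 1. Me1 went from 16.5 ± 0.983 to 20.3 ± 1.73 FPKM (SD, n = 5), 123% of the FL level (log2 fold change 0.28, SE 0.065, adjusted p = 0.0101 from limma). The mitochondrial malic enzymes did not pass, Me2 at 19.97 ± 1.57 FPKM in FL against 19.4 ± 0.868 in KO (adjusted p = 0.666 from limma) and Me3 at 2.25 ± 0.249 against 1.76 ± 0.259 (SD, n = 5; adjusted p = 0.0694 from limma).

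The ratio of Pcx to Me1 within a library was 2.26, 2.21, 2.41, 2.64 and 2.66 in FL mice 1 to 5 and 1.72, 1.80, 2.01, 1.66 and 1.86 in KO mice 1 to 5. All KO mice were below all FL mice. The difference was −0.43 on the log2 scale (exact two-sided permutation test, p = 0.00794, adjusted p = 0.0159 over the 4 ratios). Of the 2 genes only Me1 passed by itself, so this ratio is not independent of the rise of Me1.

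Pck2, mitochondrial phosphoenolpyruvate carboxykinase, turns oxaloacetate into phosphoenolpyruvate (chromosome 14, 55540266 to 55551242, plus strand). It was at 45.4, 40.8, 44.9, 45.7 and 43.6 FPKM in FL mice 1 to 5 and at 46.9, 51.7, 42.9, 45.0 and 47.1 FPKM in KO mice 1 to 5. The groups overlapped, with KO mouse 2 highest and FL mouse 2 lowest. Its log2 fold change was 0.08 (SE 0.055, 95% interval −0.04 to 0.20, adjusted p = 0.313 from limma), and upper quartile scaling brought it past the threshold at 0.19 (adjusted p = 0.0329 from limma). The ratio of Pck2 to Pcx was 1.04 to 1.13 in FL islets and 1.24, 1.31, 1.11, 1.33 and 1.41 in KO mice 1 to 5, where KO mouse 3 alone lay in the FL range. The log2 difference of 0.22 passed (exact two-sided permutation test, p = 0.0317, adjusted p = 0.0317 over the 4 ratios). The cytosolic paralogue Pck1 is listed at 0 in every FL library and was not tested.

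Of the 14 tested genes of anaplerosis, pyruvate cycling and NADPH supply beyond the 9, 1 fell and 1 rose, and 2 fell without FL mouse 2 or KO mouse 5. Glul, glutamine synthetase, fell from 694.1 ± 45.7 to 408.5 ± 44.5 FPKM (SD, n = 5; log2 fold change −0.77, adjusted p = 4.38e-05 from limma). All 5 KO mice, at 379 to 487 FPKM, were below the FL mice, at 643 to 735 FPKM. Pgd, which makes NADPH in the pentose phosphate pathway, rose from 38.4 ± 1.59 to 45.5 ± 2.96 FPKM (SD, n = 5; log2 fold change 0.24, adjusted p = 0.00957 from limma). KO mouse 3 was the lowest KO mouse for Pgd, at 40.3 FPKM.

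Glud1, glutamate dehydrogenase, feeds the tricarboxylic acid cycle from glutamate and lies on chromosome 14 (34310727 to 34345265, plus strand). FL mice 1 to 5 had 91.3, 91.3, 85.3, 80.0 and 102 FPKM and KO mice 1 to 5 had 91.1, 104, 89.5, 90.3 and 80.7 FPKM. The mice of both groups intermixed over the same range. The log2 fold change was 0.02 (SE 0.078, adjusted p = 0.896 from limma), with a 95% interval from −0.15 to 0.19 that leaves room for changes of that size in either direction.

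Abcc8 encodes SUR1, the regulatory subunit of the KATP channel and the receptor of the sulfonylurea drugs. It lies on chromosome 7 (46104523 to 46180033, minus strand). The FPKM were 263, 294, 299, 272 and 279 in FL mice 1 to 5 and 224, 253, 228, 206 and 225 in KO mice 1 to 5. KO mouse 2 came closest to the FL mice and KO mouse 4 was lowest, with no overlap. Abcc8 went from 281.3 ± 14.97 to 227.3 ± 16.8 FPKM (SD, n = 5), 80.8% of the FL level, or −0.31 on the log2 scale (SE 0.060, adjusted p = 0.00386 from limma). The call was lost under upper quartile scaling (−0.19, adjusted p = 0.0616 from limma). The ratio of Abcc8 to Slc2a2 within a library was 0.897 to 1.32 in FL and 1.30 to 1.87 in KO mice, of which 4 lay above all FL mice, so Abcc8 fell less than Slc2a2 (log2 difference 0.40, exact two-sided permutation test, p = 0.0159, adjusted p = 0.0212 over the 4 ratios).

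Of the 9 tested genes for other KATP channel subunits and nucleotide supply, 4 rose and 0 fell in limma, while at an unadjusted p under 0.05 5 were higher and 1 was lower. Without FL mouse 2, KO mouse 2 or KO mouse 3, 1 fell. Under each of the 4 other scalings 5 rose and 0 fell. Kcnj11, which encodes Kir6.2, the pore subunit that pairs with SUR1 in β cells, was at 79.3, 70.3, 86.3, 81.3 and 79.2 FPKM in FL mice 1 to 5 and at 69.8, 73.3, 74.2, 64.4 and 67.8 FPKM in KO mice 1 to 5. FL mouse 2 lay among the KO mice and the other FL mice above them, and the difference of −0.18 on the log2 scale did not pass (SE 0.061, adjusted p = 0.0545 from limma). Abcc9 and Kcnj8, the SUR2 and Kir6.1 subunits known from the channels of vascular smooth muscle, rose from 1.72 ± 0.417 to 2.84 ± 0.376 FPKM (limma adjusted p = 0.00891) and from 1.75 ± 0.407 to 2.62 ± 0.180 FPKM (adjusted p = 0.0141 from limma; SD, n = 5), both without overlap. The mural and fibroblast marker Pdgfrb rose beside them, from 4.39 ± 0.451 to 6.54 ± 0.957 FPKM (SD, n = 5; adjusted p = 0.00437 from limma), and its part in these rises was not tested. Ak3, a mitochondrial nucleotide kinase, rose from 25.4 ± 1.39 to 30.3 ± 1.88 FPKM (SD, n = 5; adjusted p = 0.00926 from limma). Ckb, creatine kinase B, rose from 30.1 ± 4.63 to 38.7 ± 4.995 FPKM (SD, n = 5; adjusted p = 0.0469 from limma), with overlap, and of the 10 fits that leave out a mouse it passed only in those without FL mouse 4 or KO mouse 3.

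**Figure D5:**
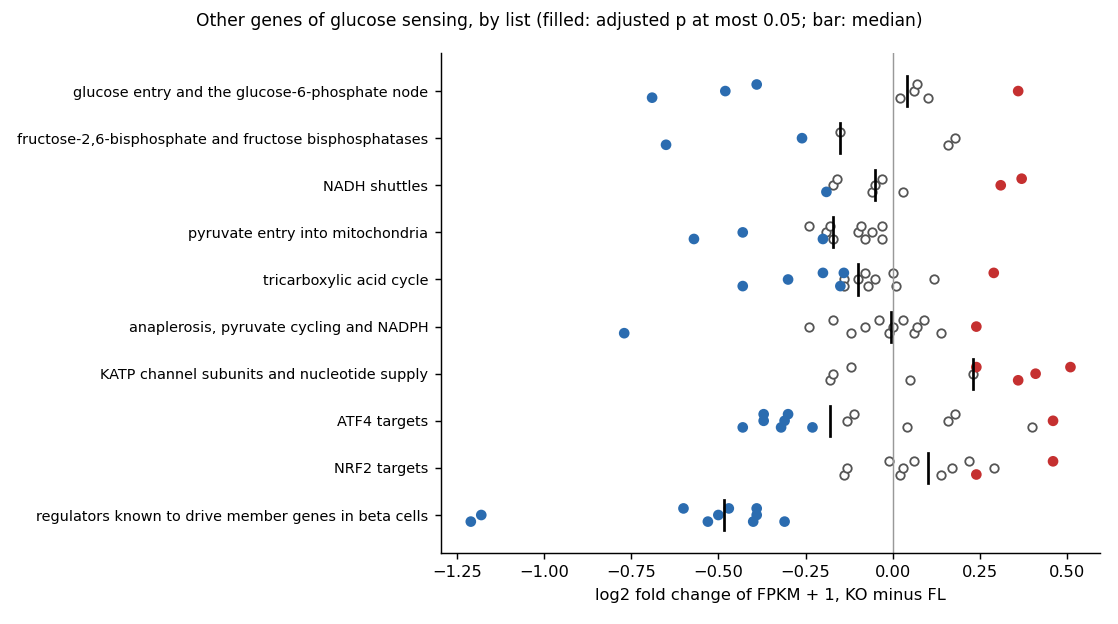
Log2 fold change of FPKM + 1, KO minus FL, of each tested gene in 10 lists around the 9 genes (1 point per gene, filled where the adjusted p was at most 0.05, with the list's median as a bar). The regulators all lie below 0 and are all filled, with a median of −0.48, and the other lists hold points on both sides of 0 except pyruvate entry, where all 13 are below it as deposited and 7 after upper quartile scaling.

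The steps that lie between pyruvate and ATP were searched in the same fit. Of 13 genes for pyruvate entry into mitochondria, 3 fell and 0 rose in limma, and at an unadjusted p under 0.05 the counts were 6 and 0. All 13 had a negative sign as deposited, with a median log2 fold change of −0.17, but 7 did after upper quartile scaling and 11 or 12 after the other scalings. Under each of the 4 scalings 2 passed as lower. Pdp1, the phosphatase that activates pyruvate dehydrogenase, fell from 5.18 ± 0.589 to 3.59 ± 0.269 FPKM (SD, n = 5; adjusted p = 0.00214 from limma). Pdk1, a kinase that inactivates the same complex, fell from 35.2 ± 2.65 to 23.9 ± 6.89 FPKM (SD, n = 5; adjusted p = 0.0157 from limma), and KO mouse 3 was again within the FL range, at 35.8 FPKM. Pdhx, a structural subunit of the complex, fell from 8.002 ± 0.596 to 6.86 ± 0.359 FPKM (SD, n = 5; adjusted p = 0.0303 from limma). It was the gene whose call was lost under the 4 scalings (adjusted p = 0.0682 to 0.379 from limma), and it was also lost without FL mouse 2, 3 or 5 or KO mouse 2, 4 or 5 (0.0555 to 0.0693).

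Of 15 genes of the tricarboxylic acid cycle, 5 fell and 1 rose. Fumarase (Fh1) fell from 109.7 ± 8.10 to 81.1 ± 5.80 FPKM (SD, n = 5; adjusted p = 0.000887 from limma). Idh3a, a subunit of isocitrate dehydrogenase, fell by 0.20 on the log2 scale (adjusted p = 0.0432 from limma). Ogdh, a subunit of the 2-oxoglutarate dehydrogenase complex, rose from 69.0 ± 3.58 to 85.0 ± 7.10 FPKM (SD, n = 5; adjusted p = 0.00626 from limma). The number that fell depended on scaling, with 2 after median ratio, quantile or same-sum scaling and 1 after upper quartile scaling, while 1 gene rose under each of these. The count was also 2 without FL mouse 3, KO mouse 1 or KO mouse 4, and 3 without FL mouse 1 or 2. Idh3a did not pass under any of the 4 other scalings (adjusted p = 0.075 to 0.209 from limma) and passed in only 2 of the 10 fits that leave out a mouse, those without FL mouse 5 or KO mouse 3.

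The transcription factors of the list known to drive genes of this set in β cells fell in 10 of 10 cases, and in all 10 the FL and KO mice did not overlap. Among all tested genes 16.5% fell, and 12.5% were lower without overlap. The list was drawn up with earlier results of these libraries known, so its count is not independent evidence of its direction. Mlxipl, which encodes the glucose-responsive factor ChREBP, fell from 47.2 ± 4.23 to 20.2 ± 1.25 FPKM (SD, n = 5; log2 fold change −1.18, adjusted p = 6.88e-07 from limma). Mafa, a factor of mature β cells, fell from 252.6 ± 44.4 to 112.7 ± 39.1 FPKM (SD, n = 5; log2 fold change −1.21, adjusted p = 0.00372 from limma). Nkx2-2 and Foxa2 fell by 0.60 and 0.53 on the log2 scale (adjusted p = 0.000353 and 6.97e-05 from limma). After upper quartile scaling 9 passed and Pax6 did not (adjusted p = 0.0619 from limma), and all 10 stayed below 0.

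Pck2 is known as a target of ATF4, the factor of the amino acid and unfolded protein responses, and Me1 as a target of NRF2, the factor of the oxidative stress response. Of 14 other ATF4 targets, 7 fell and 1 rose. The number that rose was 2 after median ratio or quantile scaling and 3 after upper quartile scaling. Mthfd2, a mitochondrial folate enzyme, fell from 129 ± 7.08 to 95.8 ± 5.51 FPKM (adjusted p = 0.00026 from limma), Chac1, which degrades glutathione, from 75.1 ± 3.85 to 58.0 ± 4.38 FPKM (adjusted p = 0.00129 from limma) and Atf5, a related factor, from 534.8 ± 64.2 to 414.9 ± 51.1 FPKM (adjusted p = 0.0195 from limma; SD, n = 5). The call of Atf5 was lost after upper quartile scaling (0.133), where 4 of the ATF4 targets fell. Pck2 itself did not pass. Of 12 other NRF2 targets, 2 rose and 0 fell in limma, which became 4 and 1 at an unadjusted p under 0.05, and 4 and 0 under each of the 4 other scalings. The pair comprised Pgd and Slc7a11, the cystine transporter, which is in both lists and rose from 1.25 ± 0.279 to 2.13 ± 0.532 FPKM (SD, n = 5; adjusted p = 0.0285 from limma). Slc7a11 did not pass without FL mouse 3, 4 or 5 or KO mouse 1, 4 or 5. Without KO mouse 3, 4 NRF2 targets rose, and without KO mouse 5, 1 fell.

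RefSeq promoters (GRCm38.p6) were found for 8 of the 9 genes, 14 in all, with Abcc8 not among them. In the 250 bases before each start, both strands were searched for CACGTG, the NRF2 element TGACNNNGC, the ATF4 composite element TGATGNAAT, the Maf element TGCTGAC, the homeodomain site TAATTA and the palindromic site of HNF1. No match was found in 8 of the 14. Beyond those shown, CACGTG was in a Pcx promoter, 248 to 243 bases before the start, and TAATTA in the second of 2 Me1 promoters. Over all 32851 promoters of the table the shares were 10.2% for the NRF2 element, 0.816% for the ATF4 element, 4.84% for TAATTA and 0.00913% for the HNF1 site. A match describes the letters of the window and not a bound site.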

How the data were processed

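Islet RNA of 5 FL and 5 KO mice was sequenced as stranded libraries of polyadenylated RNA, read from a single end over 75 nt. Per the labels' processing notes, the authors used STAR 2.5.2a and Cuffnorm 2.2.1 with mm10/GRCm38, and whether strand was used in counting is not given in the sources used here. The authors deposited FPKM, scaled across libraries by Cuffnorm, and the reads were not processed again. All 10 columns belong to mapped mice. Depth was estimated from the step of 1 fragment in single-exon genes (values up to 0.3 FPKM, effective length taken as length minus 200 nt), where at least 99.5% of values in each library were within 5% of a whole number. It includes the scaling across libraries and can differ from the number of mapped fragments.

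The test was limma 3.58.1 (lmFit, eBayes with trend; R 4.3.3) on log2(FPKM + 1), KO against FL, which understates changes of low genes, over genes with a group mean of at least 1 FPKM and without covariates. The procedure was tested on simulated data. Single genes and within-library ratios were compared with exact two-sided permutation tests over mice. Summaries and plots used pandas 2.3.3, numpy 2.4.6 and matplotlib 3.10.9 under Python 3.11.15. Coordinates are from GENCODE M21 (GRCm38), where Pcx, Pck2, Glud1 and Abcc8 carry another identifier version. Promoters are from RefSeq (GRCm38.p6).

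The 9 genes and all lists were chosen with earlier results of these data known, so no limma p-value was adjusted over a list alone and no set test was run. The 4 ratios pair genes of the 9, and their p-values were adjusted over these 4 only. Named besides the 9 are Fitm2, the paralogues, and at most 4 called genes per pathway list with the largest change. The counts include 1 gene named by this rule whose own values are not reported here. Other genes named, such as Pdgfrb and Kcnj11, were chosen after their values were seen. The study's methods name floxed littermates as controls for its western diet mice, and for the sequenced mice no source used here ties single FL to single KO mice. The p-values weigh the difference between the groups against the spread between these mice, which limma moderates with that of all tested genes.

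Alternatives were pseudocounts of 0.1 and 0.01, no filter or a minimum of 5 FPKM, 4 other scalings, limma with sample weights, robust eBayes or no trend, the replicate number as a block, a change of at least 1.5-fold, and leaving out each mouse. The acinar sum as a covariate was added after seeing the data.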

Additional observations from a re-analysis of the deposited data

Results flagged for a closer look

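Among 104 groups of 5 values (47 genes and 5 ratios, FL and KO apart), 7 held a mouse that stood far from the other 4, where chance alone gives about 5.2. For G6pc2, FL mouse 4 was at 1438 FPKM and the other FL mice at 1064 to 1161 FPKM. For Slc2a1, KO mouse 3 was at 42.7 FPKM and the other KO mice at 23.7 to 28.5 FPKM. FL mouse 4 was at 25.4 FPKM for Gpd1l, against 17.3 to 17.9 FPKM in the other FL mice. KO mouse 5 was at 2.21 FPKM for Me3, against 1.56 to 1.69 FPKM in the other KO mice. KO mouse 3 was lowest for Pgd at 40.3 FPKM, against 45.8 to 47.4 FPKM. KO mouse 2 was highest for Glul at 487 FPKM, against 379 to 400.4 FPKM. FL mouse 3 was highest for Atf5 at 646 FPKM, against 493 to 532 FPKM.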

How the results depend on the processing

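The calls of Slc2a2, Pfkfb2, Gpd2 and Me1 kept their direction and their side of the threshold under each of the 23 alternatives for single genes, with log2 fold changes from −0.78 to −0.59, −0.49 to −0.33, −0.93 to −0.75 and 0.25 to 0.39. Leaving out any mouse left 4 of the 9 genes lower and 1 higher. Requiring a change of at least 1.5-fold left 2 lower (Slc2a2 and Gpd2) and 0 higher, upper quartile scaling gave 2 higher, and the acinar sum as a covariate gave 6 lower. Over all genes, 290 were lower and 349 higher with a change of at least 1.5-fold, and 899 and 1999 after upper quartile scaling, against 2150 and 1183 as deposited. Leaving out 1 mouse gave 1589 to 2367 lower and 936 to 1130 higher. With no filter on low values, Gpi1, Gpd1l, Mdh2, Pdhx, Idh3a, Slc7a11 and Ckb did not pass (adjusted p = 0.0506 to 0.0921 from limma). Sst, Irx1, Plvap and Col1a1 of the marker lists did not pass there either (adjusted p = 0.413, 0.0658, 0.0672 and 0.0955 from limma). The log2 fold change of Glud1 turned slightly negative with sample weights (−0.0062), with the acinar covariate (−0.0028) and in 3 of the fits without a mouse (−0.0312 to 0.0637 over all 10 such fits), and did not pass in any setting. Deviations of same-numbered FL and KO mice from their group means correlated at −0.102 to 0.003, so these values showed no pairing by replicate number. With 5 mice per group they cannot exclude a pairing. With the replicate block, 1494 genes were lower and 874 higher and no call among the 9 genes changed. Of the genes named from the pathway lists, Tigar, Idh3a, Pdhx, Ckb and Slc7a11 did not pass with the block (adjusted p = 0.0552, 0.0638, 0.102, 0.112 and 0.073 from limma), and the number of tricarboxylic acid cycle genes that fell went from 5 to 2. Sign flips over same-numbered pairs gave the 4 ratios (0.45, −0.43, 0.22 and 0.40 on the log2 scale) p = 0.0625 in an exact test, the smallest that 5 pairs allow. Counting error at the lowest value of a gene, for its shortest coding transcript, was 0.49% to 7.4% for the 9 genes.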
